A study of Drosophila melanogaster with 3 samples.

Results

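The 500 strongest Rel peaks were the first 500 of the 9419 peaks in the authors' optimal list of reproducible peaks, ordered by the deposited signal from high to low. Rel (Relish) is the NF-κB factor of the Drosophila melanogaster IMD pathway. The members were therefore chosen by their signal, and the signal is given below as a description, with no test. The other 8919 peaks of the list served as the comparison. Chromatin immunoprecipitation with an antibody against GFP had been carried out on whole larvae of the third instar, the last larval stage, at the time of wandering, with males and females pooled. All samples came from a transgenic line in which GFP is fused to the N terminus of Rel and is expressed stably. The 3 samples are biological replicates of this 1 group, with no treatment named in the labels, and a control library of the authors is not analysed here. The promoter that drives the fusion is not given in the sources used here, and in whole larvae the tissue in which a site is bound cannot be told.

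In the IMD pathway, peptidoglycan of certain bacteria is bound by receptors of the PGRP family, and a signalling complex then leads to cleavage of Rel, whose N-terminal part enters the nucleus. There it binds κB sites, short G-rich elements with a C-rich end, near genes such as those for antimicrobial peptides. The fat body, which works as liver and adipose tissue, and the blood cells are the best-known sites of this response, and GATA factors are known to act beside NF-κB factors at antimicrobial peptide genes of the fat body.

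The sequences at the summits are shown first, because the κB site was the feature by which the tagged factor could be checked. They were read from the RefSeq release 6 genome (dm6). In the first set the capitals mark κB matches. A pair of separate κB sites lay within 100 bp of the summit in 3 members, and the windows of 2 of them that held no exon are shown on the plus strand. The first lies in an intron of CG5921 (rank 46, nearest TSS that of CG43115, chrX:6062248-6062448) and the second in the second intron of Pli (rank 78, chr3R:23885282-23885482), which encodes pellino, a ubiquitin ligase of Toll signalling.
CG43115: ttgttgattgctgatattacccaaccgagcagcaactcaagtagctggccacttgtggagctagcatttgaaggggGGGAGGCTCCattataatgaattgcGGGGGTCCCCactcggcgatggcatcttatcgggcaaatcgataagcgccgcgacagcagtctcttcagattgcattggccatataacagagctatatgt
Pli: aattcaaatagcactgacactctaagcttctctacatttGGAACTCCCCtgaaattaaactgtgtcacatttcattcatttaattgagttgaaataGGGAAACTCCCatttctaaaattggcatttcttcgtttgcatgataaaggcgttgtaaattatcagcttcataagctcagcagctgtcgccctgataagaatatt
The next sequences are the κB sites of members nearest to immune genes, each on the strand that reads G-rich to C-rich, with flanking bases in lower case.
AGO2, chr3L:15554590-15554619, plus strand, promoter: cgaaatgcctGGGAATTCCCgaattcgtgg
eff, chr3R:14739170-14739199, plus strand, intron: ctaattatttGGGGGCCCCCttttggctga
cact, chr2L:16319931-16319960, plus strand, intron: gaccacctatGGGGTTTTCCtcgcagctga
PGRP-SA, chrX:11561836-11561865, plus strand, promoter: gctaatggacGGGAGTCCCCtgtggctctg
kay, chr3R:29783354-29783383, minus strand, intron: ttgagaaaaaGGGGATCTCCggcttccaag
msn, chr3L:2579730-2579759, plus strand, intron: gaaccagtccGGGATTTCCCtttgtttctg
Srg1, chr3R:24864072-24864101, minus strand, 3′ UTR of CG7016: agtgtgaatcGGGGAACTCCCtcttagaag
The next 4 sites, at members nearest to genes outside the immune lists, came from introns of Exn, Mekk1 (a stress-activated kinase), E2f1 (the cell cycle transcription factor) and gpp (a histone methyltransferase). Of these and the sites above, those of gpp, AGO2 and eff equal their own reverse complement.
Exn, chr3L:16985613-16985642, plus strand, intron: ttataataGGGGGACTCCCCttcaatgaag
Mekk1, chr3R:18742814-18742843, plus strand, intron: gcgaatgagaGGGAAACCCCgcaaatatgg
E2f1, chr3R:21631281-21631310, minus strand, intron: gaaacgcaaaGGGGACTTCCCtggaattca
gpp, chr3R:6432982-6433011, plus strand, intron of gpp: aaacaaaagaGGGGAATTCCCCgtggcacg
The last set shows a relaxed κB match and a GATA match (GATAAG, or CTTATC on the other strand), both in capitals, inside 30 bases. The spacing between them was 0 bp at CG4911, 8 bp at edin, 1 bp at PGRP-SD, 7 bp at Keap1 and 3 bp at grn.
CG4911, chr3L:9072161-9072190, plus strand, intron: ttggcagGGGAATTCCTCTTATCgtggact
edin, chr3L:17494735-17494764, minus strand, promoter: tttCTTATCaacccaacGGGGATTTTTtaa
PGRP-SD, chr3L:7651118-7651147, plus strand, promoter: tccttgGGGGCACTCCcCTTATCagcggca
Keap1, chr3R:17079070-17079099, plus strand, intron: tcaGATAAGggcaaaaGGGACTTCCCccgc
grn, chr3R:8180492-8180521, plus strand, intron: ttttgGGGAATTTTTgggCTTATCagcaat

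The deposited signal of the members fell from 20515 at rank 1 to 11266 at rank 20, 5510 at rank 100 and 2262.36 at rank 500. Around the threshold, the peaks at ranks 499 and 500, nearest to CG7841 and cv-2, had signals of 2264.12 and 2262.36, and the peaks at ranks 501 and 502, nearest to fz4 and for, had 2261.99 and 2258.44. The order is continuous there, so the boundary is a matter of the rule. The median signal was 3574 in the members and 366 in the other peaks, and the members held 33.0% of the signal summed over the list. Interval width followed signal, with a median of 856 bp against 376 bp. The 500 summits lay in 489 intervals, because 9 intervals held 20 of the summits, so those members share their region.

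Relative signal, used from here on, is a replicate's signal at the matched peak (summits within 100 bp) divided by the median over that replicate's matched optimal peaks, so that 10 means 10 times a typical reproducible peak. It is not corrected for depth, which is unknown. Where 3 relative signals are given for a peak, they are those of replicates 1, 2 and 3 in that order. A peak matched in all 3 replicates was found for 498 members, whose mean relative signal lay between 4.81 and 50.3 (median 8.805). The exceptions were lncRNA:CR43287 at rank 394, without a match in replicate 2, and CG31668 at rank 455, without one in replicate 1. Of the members, 89.8% stood among the strongest 500 peaks of replicate 1, 90% of replicate 2 and 95.2% of replicate 3, which is 91.7% ± 3.06 (SD, n = 3). In all 3 replicates 396 members (79.2%) did so, and 83 in 2 and 21 in 1. Every member did so in at least 1 replicate. Since the optimal list was derived from these replicates, this agreement is not independent of the choice of members.

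**Figure D1:**
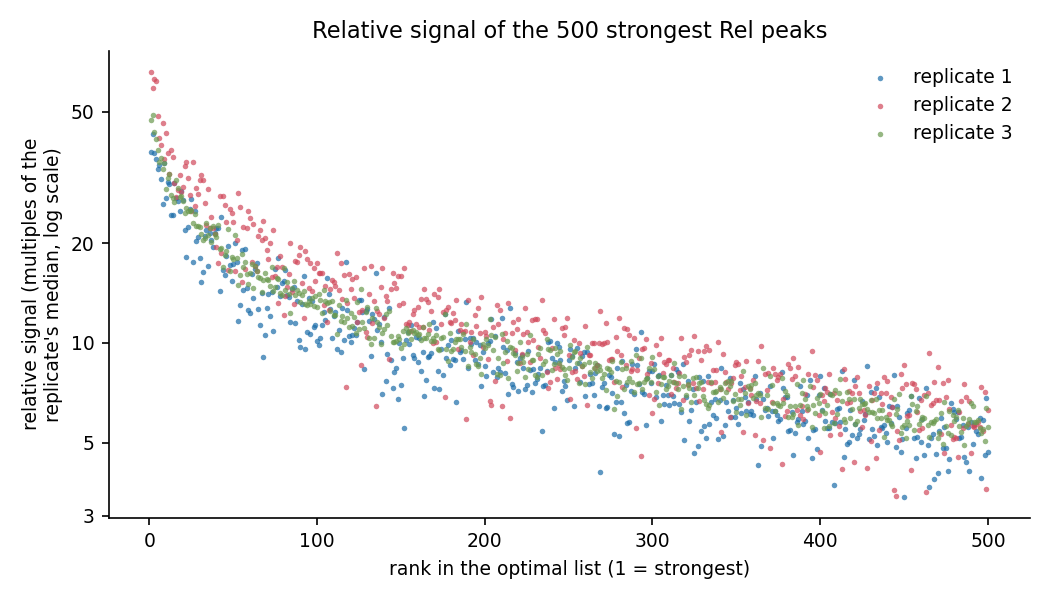
Relative signal (multiples of the replicate's median, log scale) of each of the 500 strongest Rel peaks against its rank in the optimal list, with 1 point per replicate. The values fall steeply over the first ranks, no gap separates rank 500 from the peaks above it, and the points of replicate 2 tend to lie above those of replicate 1.

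The strongest peaks lay more often at promoters than the rest. A promoter, the sequence within 500 bp of a transcription start site (TSS), held 297 members (59.4%, exact 95% interval 54.95% to 63.7%) against 50.1% of the other peaks. Ranked within each replicate, the promoter share of the strongest 500 was 59.8%, 60% and 60% in replicates 1, 2 and 3, against 50.6%, 51.2% and 50.02% of ranks 501 to 9419 of the same lists. The difference was 9.35 percentage points ± 0.586 (SD, n = 3), higher in 3 of 3 replicates (exact two-sided sign-flip test, p = 0.25, adjusted p = 0.288 over 15 comparisons). Its size depended on the set compared: 13.5 points for the strongest 250, 4.198 for the strongest 1000 and 14.7 for the strongest 500 against the weakest 500. With 3 replicates 0.25 is the smallest p this test can give, so none of the comparisons of this kind could pass 0.05. Replicates of 1 group also share most of their peaks, so the spread is that between peak lists of the same binding pattern. Introns held 146 members (29.2%) against 35.5% of the other peaks. Of the 146, 108 were in first introns, a share that was not counted for the other peaks. A further 31 members (6.20%) were intergenic, 9 lay in coding sequence, 8 in 5′ UTRs, 5 in 3′ UTRs and 4 in exons of non-coding RNAs. The promoter share declined along the ranks, from 70% of ranks 1 to 20 to 47% of ranks 401 to 500.

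The median distance from summit to nearest TSS was 249 bp in the members and 498 bp in the others. Of the promoter members, 202 of 297 had the summit upstream of the TSS. The side was not counted for the other promoter peaks, so this is not shown to be particular to the members. TSSs on both strands lay within 500 bp of 26.6% of the promoter members and of 28.0% of the other promoter peaks. By chromosome arm, 81 members lay on 2L, 106 on 2R, 115 on 3L, 116 on 3R, 2 on chromosome 4 and 80 on X, shares between 0.4% and 23.2% that stood within 2 percentage points of those of the other peaks. The members farthest from any TSS were in introns. They lay in Tet, a homologue of the DNA demethylases of mammals (rank 384, 27133 bp), in gpp (rank 323, 18589 bp) and in Glut4EF (rank 213, 16731 bp from the TSS of Art4).

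The κB motif was found within 100 bp of the summit in 97 members (19.4%, exact 95% interval 16.02% to 23.1%) against 7.15% of the other peaks and 2.40% of windows 1000 bp to either side of the members. The motif was searched on both strands by its usual degenerate consensus, and a relaxed form with any pyrimidines at its end includes the strict one. The relaxed form was in 199 members (39.8%), against 19.5% of the other peaks and 8.50% of the side windows. In the strongest 500 of replicates 1, 2 and 3, the strict motif stood in 17%, 21.4% and 18.2% of the windows, against 6.20%, 7.74% and 6.64% of the remaining ranks. The difference of 12.01 percentage points ± 1.48 (SD, n = 3) was positive in 3 of 3 replicates (exact sign-flip p = 0.25, adjusted p = 0.288). It was present at promoter peaks, where 16.2% of members and 4.35% of others held the motif, and outside promoters, where 24.1% and 9.97% did. The site nearest the summit lay a median of 17.5 bp from it in the members, and within 50 bp in 91.8% of the 97.

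The GATA motif GATAAG, the site of GATA factors, was in 144 members (28.8%), against 18.7% of other peaks and 10.9% of side windows. The share in the strongest 500 was 27.8%, 26.8% and 28% in replicates 1, 2 and 3, and 19.6%, 18.9% and 19.03% in the remaining ranks, a difference of 8.38 points ± 0.533 (SD, n = 3; exact sign-flip p = 0.25, adjusted p = 0.288). GATA sites were spread more widely than κB sites, with a median of 41.5 bp from the summit; the medians in the other peaks were the same for both motifs. Both a relaxed κB site and a GATA site were held by 66 members (13.2%) and by 3.68% of the others, and 223 members (44.6%) held neither, against 65.5% of the others. Inside 30 bases of each other the pair occurred in 13 members (2.60%) and in 0.751% of other peaks. Of the 13, 5 were nearest to immune genes, as were 9.60% of all members.

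**Figure D2:**
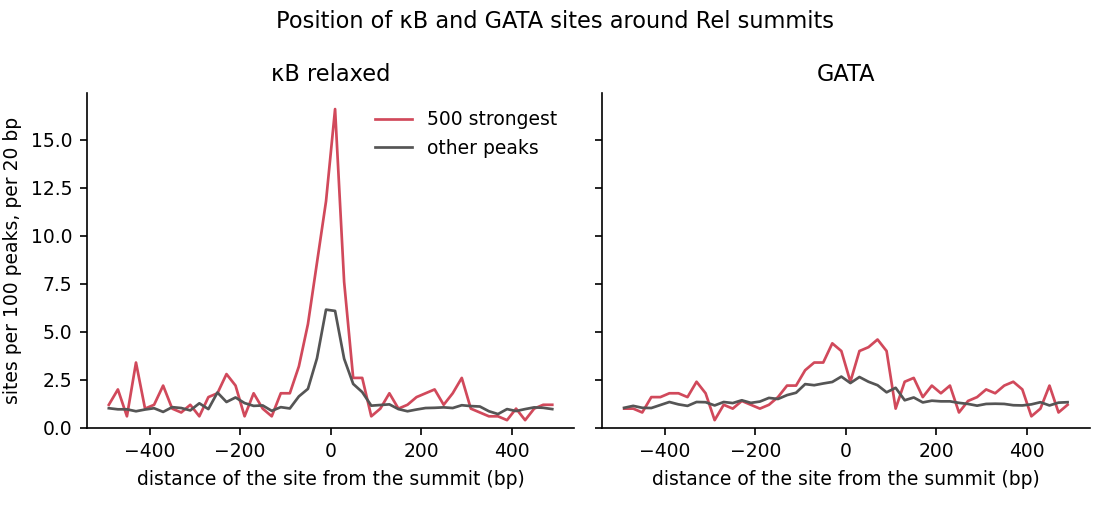
Number of relaxed κB sites (left) and GATA sites (right) per 100 peaks in bins of 20 bp, against distance from the summit in bp, for the 500 strongest peaks and the other 8919. The κB sites of the members concentrate at the summit, while their GATA sites form a broader, lower rise.

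Of the other motifs, GAGAGAG, the site of the GAGA factor, stood in 3.60% of members and 6.87% of others, and was lower in the strongest 500 of 3 of 3 replicates (difference -3.32 points ± 0.584, SD, n = 3). The E-box CACGTG was in 4 members (0.8%) and 2.83% of others, lower in 3 of 3 replicates (difference -1.83 points ± 0.0454, SD, n = 3). The promoter elements TATCGATA (DRE) and Ohler1 stood in 3.00% and 2.60% of members, against 3.37% and 2.18% of others. Within promoters the DRE stood in 4.38% of members and 6.29% of other peaks, and the difference within replicates was -1.58 points ± 0.419 (SD, n = 3). A TATCGATA followed by AG also counts as a GATA match. The AP-1 site TGANTCA was in 7.6% of members and 6.68% of others, the STAT site TTCNNNGAA in 6.80% and 5.93%, the CRE TGACGTCA in 0.8% and 0.706%, and the Zelda site CAGGTAG in 1.40% and 0.830%. All of these were higher in the strongest 500 of 3 of 3 replicates, by small mean differences of 1.14, 0.465, 0.0824 and 0.492 points. In the side windows of the members the AP-1, STAT, CRE and Zelda sites stood in 5.1%, 6.3%, 0.1% and 1.9%. The Zelda share of the members was thus below that of their side windows. GAGAGAG and CACGTG stood in 4.0% and 2.9% of the side windows, so the GAGAGAG share of the members was close to that around them. For the DRE and Ohler1 the side windows had 1.1% and 0.2%. The heat shock element, alternating GAA and TTC blocks with any 2 bases between them, was in 1 member. The ecdysone response element, the parts AGGTCA and TGACCT with any base between, was in 0 of all 9419 windows. GC content in the window was 43.8% in members and 42.7% in others, and the difference within replicates was 0.808 points ± 0.263 (SD, n = 3; exact sign-flip p = 0.25, adjusted p = 0.288). The GC difference was 0.248 points ± 0.546 at promoter peaks and 1.78 ± 0.0656 outside promoters, and it was 1.52 with 50 bp and 0.222 with 200 bp to each side.

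**Figure D3:**
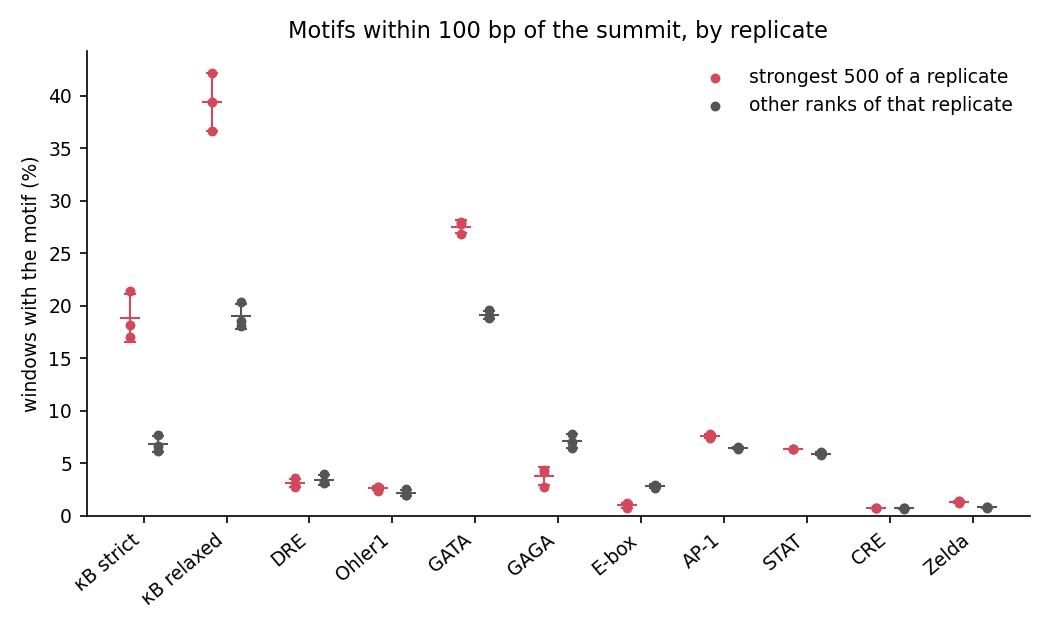
Share of 201 bp summit windows that hold each motif, in percent, in the strongest 500 peaks of each replicate and in the remaining ranks of the same replicate. Points are the 3 replicates and bars their mean ± SD. For both κB forms, GATA, AP-1, STAT, CRE and Zelda the points of the 2 sets do not overlap, with the strongest peaks higher. The points of GAGA and the E-box do not overlap either, with the strongest peaks lower. The gap is widest for the κB forms and GATA.

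Counting all 2080 6-base words, with each word and its reverse complement as 1, needed no chosen motif. The word with the largest excess over other peaks was GGGGAA, the G-rich end of a κB site, in 35.8% of members, 17.9% of others and 7.90% of side windows. CGGGGA (20.2% and 8.77%), AGGGGA (20.6% and 9.63%) and ATTCCC (25.6% and 14.7%), which overlap the κB consensus, came next in members and others. The fifth was CTTATC, the reverse complement of GATAAG. These words overlap and were ranked on the same windows, so they are a description.

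The coefficient of variation (CV) of relative signal over the 3 replicates had a median of 15.6% over the members, 17.8% at promoters and 12.8% elsewhere. In the other peaks matched in all replicates the medians were 23.8%, 23.7% and 23.9% in the same order. Replicate 2 gave the highest value in 328 of 498 members, and in 211 of 297 promoter members against 117 of 201 others. The share was 127 of 150 within 100 bp of a TSS and 82 of 97 with the strict κB motif. Of the 28 members with a DRE or Ohler1 element, 27 were highest in replicate 2. Their median relative signals were 7.95, 12.9 and 8.46 in replicates 1, 2 and 3. Among the 8013 other peaks matched in all replicates, replicate 2 was highest at 39.8%. It was highest at 68.5% of those with a strict κB motif and at 58.4% of those with a DRE or Ohler1 element. Peaks with these motifs outside the members thus shared part of the excess. Position at a promoter did not carry it there: replicate 2 was highest at 39.8% of other promoter peaks and at 42.1% of those within 100 bp of a TSS. What sets replicate 2 apart was not tested.

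**Figure D4:**
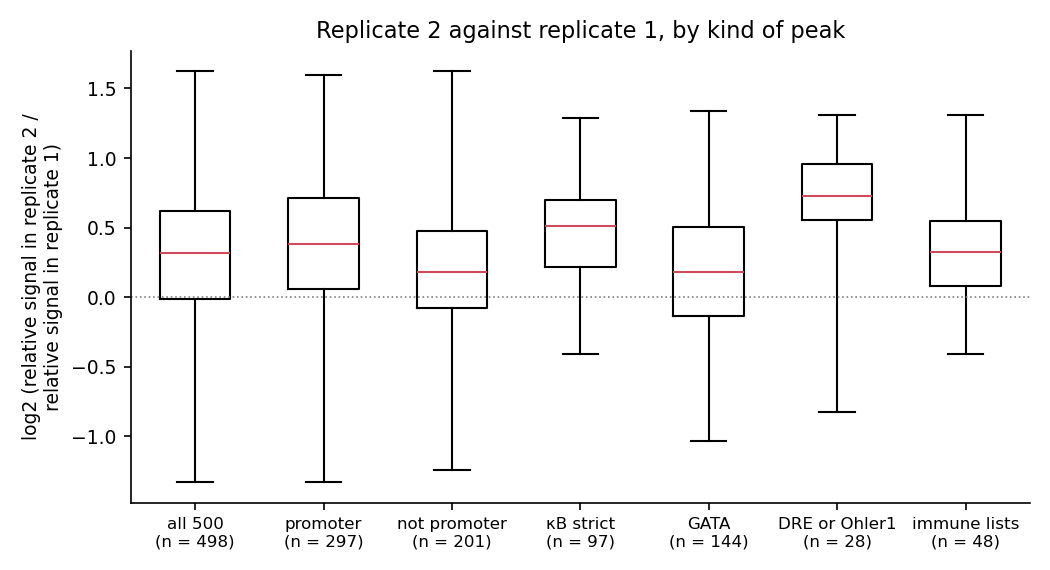
Log2 ratio of relative signal in replicate 2 over replicate 1, by kind of peak. Boxes show the quartiles, red lines the medians and whiskers the full range over peaks. The medians were 0.32 over all members, 0.38 at promoters, 0.18 elsewhere, 0.51 with a strict κB site and 0.73 with a DRE or Ohler1 element, against 0.05, 0.04, 0.05, 0.47 and 0.31 in the other peaks of the same kinds.

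The members with the highest CV were nearest to Zfrp8, dikar, MEP-1, CG12991 and spn-E, with CVs of 52.7% to 45.8%. In each of them replicate 2 was highest and replicate 1 lowest. At Zfrp8 (rank 152) the relative signals were 5.55, 16.8 and 9.94. At MEP-1, a zinc finger protein of chromatin complexes (rank 53), they were 11.6, 28.4 and 14.96. The lowest CVs were those of dia, cindr, CG7142, CG6701 and CG3868. At dia, which encodes an actin-nucleating formin (rank 39), the signals were 21.5, 21.4 and 21.3, and at cindr, an adaptor protein of the cell cortex (rank 63), 16.7, 17.03 and 17.1.

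The nearest TSSs of the 500 summits belonged to 476 genes. Of the summits, 450 were nearest to a protein-coding gene, and in 126 cases the product is listed as uncharacterized. Genes of the 8 immune lists (213 genes) were nearest to 48 members (9.60%, exact 95% interval 7.16% to 12.5%) and to 2.38% of the other peaks. The interval covers counting error only. The lists were chosen with earlier results of these data known, so this contrast is a description and not independent of them. In the strongest 500 of each replicate the share was 9.20%, 9.60% and 9.40%, against 2.40%, 2.47% and 2.44% of the remaining ranks. The immune members did not stand only at the top: 6 were among ranks 1 to 20, 8 among ranks 21 to 100, 10 among 101 to 200, 7 among 201 to 300, 9 among 301 to 400 and 8 among 401 to 500. These bins differ in width, and the immune members were densest in ranks 1 to 20. The immune share was 11.6% over the strongest 250 peaks and 7.10% over the strongest 1000. Of the 48, 16 held a strict κB motif, 29 a relaxed one and 20 a GATA site, and 29 lay at promoters. Over all 500 members the shares were 19.4%, 39.8%, 28.8% and 59.4% in the same order, so the promoter share of the immune members was close to that of all members.

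Among the recognition proteins, 7 of 13 annotated PGRP genes were nearest to 8 members (1.60%, against 0.146% of other peaks). PGRP-LB, an amidase that degrades peptidoglycan and dampens the response, had 2. The peak at 1 of its promoters (rank 38, chr3R:11453598-11455037) had relative signals of 19.5, 22.2 and 22.5. The second (rank 99, chr3R:11460559-11461953), in an intron of CG17230, lay 653 bp upstream of a different TSS of PGRP-LB and had 11.3, 15.4 and 13.9. The first exceeded the second in each replicate. PGRP-SA, which recognises Gram-positive bacteria for the Toll pathway, had 11.6, 9.97 and 10.4 at rank 169 (chrX:11561459-11562154), with the κB site shown above 9.5 bp from the summit. PGRP-SD, its partner in recognition, had 8.601, 11.6 and 10.7 (rank 179). The signals of PGRP-SA and PGRP-SD overlap between replicates, and their order cannot be told. The amidase genes PGRP-SB1 (rank 310) and PGRP-SC2 (rank 405) had 6.48, 8.88 and 7.66 and 5.55, 8.05 and 5.62. PGRP-LC, the main receptor of the pathway, had 5.67, 8.19 and 7.57 at rank 343, with relaxed κB matches and no strict one. PGRP-LF, which restrains the pathway at the membrane, ranked 9.

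Of the IMD pathway list, 6 of 22 genes were nearest to 7 members (1.4%, against 0.258% of other peaks). Besides Charon (rank 8) and pirk (rank 12), these were Tab2, part of the kinase complex above the IKK complex, with 15.4, 12.1 and 16.9 at rank 80, and key, the regulatory subunit of the IKK complex that acts on Rel. The gene key had 2 members, at 277 bp and 67 bp downstream of its nearest TSS. The stronger (rank 101) had 9.88, 16.2 and 14.03 and held a strict κB motif, and the weaker (rank 214) had 7.02, 13.2 and 7.84 and held an Ohler1 and a GATA element. The ubiquitin-conjugating enzyme gene eff had 10.3, 15.5 and 13.4 (rank 109). The adaptor gene imd, from which the pathway is named, had 8.63, 12.7 and 8.498 at a promoter summit (rank 196).

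Antimicrobial and infection-induced peptide genes were nearest to 7 members (1.4%, against 0.213% of other peaks), 7 genes of 43 on the list, and 6 of the summits were at promoters. They were DptB, a diptericin (rank 87), IBIN (97), edin (119), Mtkl (182), the cecropin gene CecC (281), the attacin gene AttC (317) and the metchnikowin gene Mtk (334). Every one of the 7 summits held a GATA site, and 6 held a relaxed κB site. DptB had 11.5, 17.7 and 13.9, IBIN 13.4, 14.3 and 13.7, and edin 10.5, 16.1 and 11.2. Mtk had 5.69, 9.52 and 6.501 and AttC 6.17, 10.3 and 6.32. In both, replicate 2 was well above the other two, whereas IBIN was nearly level (CV 3.37%). The CecC summit stood 1262 bp upstream of the TSS and had 6.62, 9.19 and 8.73. Of the other peaks, 19 were nearest to genes of this list. Their motifs were not counted, so the counts above hold for the 7 members only.

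**Figure D5:**
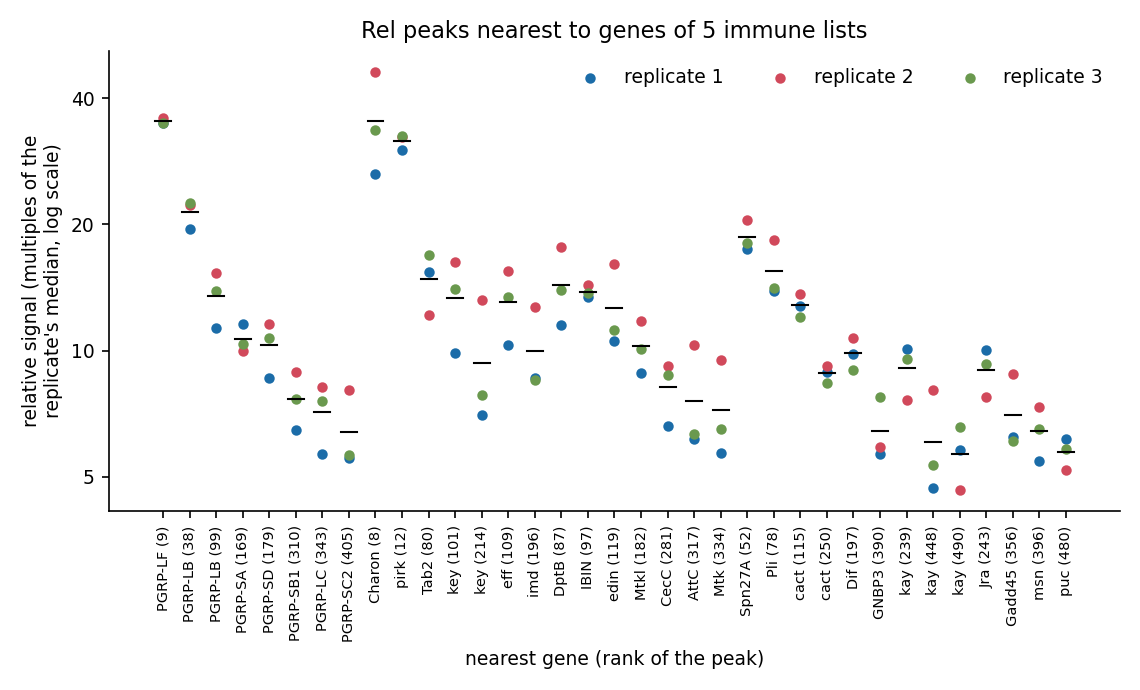
Relative signal (multiples of the replicate's median, log scale) at the members nearest to genes of the PGRP, IMD, antimicrobial peptide, Toll and JNK lists, in that order from left to right, with the rank in parentheses. Points are replicates and bars their mean. PGRP-LF, Charon and pirk stand above 25 in every replicate, and most others lie between 5 and 20.

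The Toll list had 5 of 36 genes, nearest to 6 members (1.20%, against 0.527% of other peaks). The gene cact encodes the IκB protein that holds back the Toll pathway's NF-κB factors. It was nearest to 1 member at a promoter (rank 250), with 8.89, 9.203 and 8.39, and 1 in an intron (rank 115), with 12.8, 13.6 and 12.04, the second above the first in each replicate. A further member (rank 494), with 5.30, 5.75 and 5.86, also lay in an intron of cact, but its nearest TSS is that of fzy. Dif, an NF-κB factor of that pathway, had 9.83, 10.7 and 8.997 in an intron 7598 bp downstream of a TSS. Spn27A, a serpin that limits melanization and Toll activation, had 17.5, 20.4 and 18.03 (rank 52, chr2L:6673029-6674092), and held neither κB form. Pli had 13.9, 18.3 and 14.1, and GNBP3, which senses fungi, had 5.68, 5.89 and 7.75.

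In the JAK-STAT list (0.8% of members and 0.224% of other peaks) the members were upd3, a cytokine gene (rank 14), Tep4 (rank 61), Stat92E (rank 174) and Tep2 (rank 364). Tep4 and Tep2 encode thioester proteins, relatives of complement. Tep4 had 16.2, 17.6 and 17.4 and Tep2 7.07, 6.59 and 6.96. Stat92E, the transcription factor of that pathway, had 9.61, 11.4 and 10.3 in an intron. None of the 4 held a strict κB motif. In the JNK and AP-1 list 5 of 17 genes were nearest to 7 members, ranked 239 to 490 (1.4%, against 0.493% of other peaks). The gene kay, the Drosophila Fos, had 3, with 10.1, 7.62 and 9.53 at rank 239, 4.698, 8.07 and 5.35 at rank 448 and 5.78, 4.66 and 6.59 at rank 490. The last was at a promoter and lacked a κB site. Jra, the Drosophila Jun, had 10.02, 7.76 and 9.27. The phosphatase gene puc, a JNK target and inhibitor, had 6.17, 5.19 and 5.83, and Gadd45, an activator of stress kinases, 6.23, 8.82 and 6.07 in intergenic sequence. Strict κB motifs stood in 4 of the 7, against 19.4% of all members.

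RNA silencing and antiviral genes were nearest to 7 members, 6 genes of 23 (1.4%, against 0.146% of other peaks). After AGO2 (rank 2) and pst (rank 20) came spn-E, a helicase of the piRNA pathway (rank 234, 5.43, 13.5 and 7.9998), Sting, the receptor of cyclic dinucleotides (rank 284, 7.45, 8.59 and 8.41), ref(2)P, the Drosophila p62 (rank 345, 6.24, 7.28 and 7.68), and Srg1, a gene regulated by Sting (rank 416, 4.95, 6.605 and 7.105). Replicate 2 was well above replicate 1 at spn-E, whereas at Sting the replicates lay close together. Of the blood cell list of 34 genes only ush, a cofactor of GATA factors, and drpr, a phagocytic receptor, were nearest to a member (ranks 402 and 437), which is 0.4% of members and 0.37% of other peaks.

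Ranks 21 to 60 hold 40 peaks whose nearest genes cover several functions. The uncharacterized genes CG9643 and CG11927 led them, with 21.96, 34.4 and 24.8 and 18.2, 35.2 and 25.6, both highest in replicate 2. GstS1, a glutathione S-transferase, had 27.3, 25.1 and 25.1 (rank 25, chr2R:17098466-17099899). Signal at its promoter summit was nearly level over replicates (CV 4.88%). Zmynd8, a zinc finger gene (rank 26), had 17.5, 35.2 and 23.1, a spread of 35.8%. Growth and nutrient genes were bigmax, the partner of Mondo in sugar sensing (rank 30, 18.1, 31.02 and 22.5), PRAS40, a substrate of Akt and regulator of TOR (rank 32, 16.4, 31.1 and 20.5), Adss, of purine synthesis (rank 33, 21.05, 26.5 and 20.8), and Mpc1, a subunit of the carrier of pyruvate into mitochondria (rank 36, 21.4, 22.3 and 22.3). Of these, Mpc1 varied least (CV 2.26%) and PRAS40 most (33.6%). Atg18b, an autophagy gene, had 20.4, 24.02 and 20.2, and pdgy, an acyl-CoA synthetase gene, 24.1, 18.6 and 19.4, the latter highest in replicate 1.

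Signalling genes in this range were Pak3, a kinase of the cytoskeleton (rank 41, 22.3, 17.4 and 22.7), dock, an adaptor in axon guidance (rank 57, 19.2, 16.7 and 17.6), and Pp2C1, a phosphatase with a second member at rank 13 in the same interval. The gene Dronc, the initiator caspase of apoptosis, had 13.1, 25.8 and 16.05 at rank 54, with replicate 2 far above replicate 1. Cipc, an interactor of the Clock protein, had 15.4, 24.8 and 18.2 and a κB motif 24.5 bp from the summit. LRP1, a lipoprotein receptor family gene, had 20.9, 28.1 and 22.5, and the glycosyltransferase gene beta4GalNAcTA had 14.5, 22.4 and 16.9. The remaining coding genes were vsg, osi, GrlHz, CG7639, CG9436, dia, Rh5, CG43064, unc-119, LSm3, CG43115, corn, DEF8, CG17982, CG5290, MEP-1 and bdg, with mean relative signals from 17.6 to 26.3. At Rh5 and corn the peak was in intergenic or intron sequence, 2300 bp upstream and 2587 bp downstream of the TSS. Long non-coding RNA genes were nearest at ranks 27, 34, 55 and 60. The first of them (lncRNA:CR44619) had 25.1, 25.97 and 24.6, and the second lay in an intron of Su(Tpl), with 21.96, 22.8 and 22.98.

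Genes beyond immunity formed small groups. Carbohydrate and lipid metabolism genes were nearest to 8 members (1.60%, against 0.953% of other peaks), with a median rank of 407. Among them Gapdh2 and Eno, of glycolysis, had 16.2, 6.45 and 12.8 and 9.38, 11.2 and 11.2, Hnf4, the nuclear receptor of lipid breakdown, 6.87, 6.01 and 7.15, Acbp5, an acyl-CoA binding protein, 5.797, 7.91 and 6.49, Desat1, a fatty acid desaturase, 6.89, 5.45 and 6.27, and Pepck1, of gluconeogenesis, 5.56, 5.69 and 5.75. At Gapdh2 replicate 2 was the lowest (CV 41.9%). Lipid genes grouped after their names had been seen added the lipophorin receptor LpR2 (rank 73, 14.2, 15.8 and 16.98), the fatty acid transporter Fatp3 (rank 86, 14.7, 13.1 and 15.4) and Seipin, of lipid droplets (rank 418, 6.27, 6.64 and 5.94). Translation factor and tRNA synthetase genes were nearest to 4 members (0.8%, against 0.493% of other peaks), eRF1 (rank 6), eIF4A (rank 11), LysRS (rank 112, 9.61, 18.6 and 10.6) and eIF1A (rank 340, 6.74, 7.26 and 7.37). The Rab and vesicle traffic list had 7 members, 1.40% against 0.908% of others, led by Rabex-5 at rank 3, with TBC1D5 (rank 71, 14.02, 17.99 and 15.5), RabX1 (10.6, 15.8 and 10.7), and Syx13 and Syx17, syntaxins of membrane fusion, at ranks 207 and 224. Among ecdysone response genes (1.00% against 1.79%), Eip75B, a nuclear receptor gene, had 2 intron members at ranks 79 and 264, with 15.2, 17.02 and 13.9 and 7.57, 10.02 and 7.82. ImpE3 and crol, of the same list, had 5.01, 7.16 and 6.75 and 5.18, 6.51 and 5.78. The lists for microRNA genes, cytoskeleton and muscle, chemoreceptors and tetraspanins had 0 members and 0.336%, 0.953%, 0.157% and 0.157% of the other peaks.

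The remaining lists had few members each. Lists with a lower share in the members than in the other peaks were developmental signalling (Wnt, Hedgehog, TGF-beta, EGFR and FGF; 0.8% against 1.54%), insulin and TOR growth (0.4% against 0.987%), chromatin and histone modifiers (0.6% against 0.964%), detoxification and redox defence (0.6% against 1.009%), transporters and channels (0.2% against 0.796%), mitochondrial respiration (0.4% against 0.639%), iron handling (0.2% against 0.314%), Notch and Hairy (0.2% against 0.336%) and cuticle and chitin (0.2% against 0.280%). In the signalling list, pan, the transcription factor of Wnt signalling, had 10.6, 15.6 and 11.2 (rank 121), arm, the Drosophila beta-catenin, 7.56, 11.8 and 8.02 (rank 230), and sty, an inhibitor of receptor kinase signalling, 6.76, 5.09 and 8.39 (rank 366). InR, the insulin receptor gene, had 6.06, 7.73 and 6.83 (rank 360), and sima, the hypoxia factor, 8.59, 8.31 and 7.50000 (rank 291). Among chromatin genes ph-p, a Polycomb group gene, had 11.9, 6.43 and 10.6 (rank 210), lowest in replicate 2, Set8, a histone methyltransferase gene, 7.57, 9.99 and 8.08 (rank 271), and Trl, the GAGA factor gene, 5.71, 5.95 and 7.23 (rank 409). Single genes of the other lists were the cytochrome P450 gene Cyp6a21 (rank 92, 15.9, 11.9 and 14.4), the channel gene Ork1 (rank 348, 6.74, 7.85 and 6.68), COX7AL2 (rank 159, 10.4, 11.4 and 10.8), Zip99C (rank 108, 12.6, 14.6 and 12.5) and Cpr73D (rank 218, 9.34, 9.52 and 9.204).

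Lists with a higher share in the members were ubiquitin and proteasome (1% against 0.684%), mitochondrial ribosomal proteins (0.6% against 0.213%), RNA processing (0.6% against 0.426%), the circadian clock (0.6% against 0.448%), cell cycle and DNA repair (0.8% against 0.718%), neuronal genes (0.4% against 0.101%), chaperones (0.4% against 0.325%), serine proteases and serpins (0.4% against 0.348%), Hippo growth control (0.4% against 0.348%) and GATA factors (0.2% against 0.179%, the member at grn). None of these differences was tested, and counts of 5 or fewer cannot rank the lists. Prosalpha2, a proteasome subunit gene, had 10.6, 20.8 and 16.3 (rank 69), the ubiquitin ligase gene Nedd4 13.9, 14.7 and 15.2 (rank 82), the ubiquitin gene Ubi-p5E 7.47, 10.8 and 9.24 (rank 225) and the ubiquitin protease gene Usp47 9.75, 8.58 and 8.68 (rank 244). Replicates were close at Nedd4 and wide apart at Prosalpha2. The mitochondrial ribosomal genes mRpS10, mRpL41 and mRpL35, all at promoters, ranked 130, 203 and 305. Of the RNA processing genes, Hrb98DE had 8.01, 12.4 and 10.4 (rank 175), ps 8.77, 8.39 and 9.67 (rank 242) and how 5.12, 7.41 and 6.18 (rank 429). The kinase gene sgg, which acts in the clock and in Wnt signalling, had 9.83, 12.8 and 8.83 (rank 178), and the clock repressor gene cwo 8.34, 7.33 and 7.56 (rank 314). The heat shock protein genes DnaJ-H and DnaJ-1 ranked 166 and 238, Spn42Da 313, kibra, of Hippo signalling, 275 and Tgi 404. The autophagy and lysosome list was at 0.6% against 0.662%, with the proton pump gene Vha16-1 at rank 328, and apoptosis at 0.2% against 0.235%.

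Transcription factor genes, picked by name from the nearest genes and so without comparison, were nearest to 34 members, of which 22 lay in introns and 11 at promoters. E2f1 had 7.12, 9.58 and 7.25 (rank 294) and Xrp1, a stress-response factor, 11.6, 11.6 and 13.3 (rank 124). The gene br, of the ecdysone response at metamorphosis, had 11.1, 13.7 and 11.97 (rank 122), pnt, an Ets factor of receptor kinase signalling, 7.61, 9.32 and 9.02 (rank 257), and cad, which acts in the gut, 5.65, 5.55 and 5.77 (rank 492). The transcriptional repressor gene hry ranked 16. Protein kinase genes were nearest to 19 members, 12 of them in introns, among them Mekk1 (rank 127, 12.4, 12.6 and 11.6), Raf (rank 306, 6.97, 8.12 and 7.88), and Takl1, a relative of the kinase that acts in the IMD pathway (rank 300, 8.24, 6.13 and 9.09). Of the stress-response genes, Keap1, the inhibitor of the antioxidant factor CncC, had 6.998, 10.3 and 7.12 in an intron (rank 289). Glycosylation genes, also grouped by name, were nearest to 7 members, among them Ugalt, a transporter of UDP-galactose (rank 117, 17.5, 7.36 and 13.5), egh (rank 140, 11.95, 11.9 and 11.1) and FucT6 (rank 212, 8.13, 10.7 and 9.36). The axon guidance receptor gene robo1 had 2 members, at ranks 89 and 277.

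For 50 members the nearest gene is not protein-coding: 25 long non-coding RNA genes and 12 antisense RNA genes by symbol, 4 tRNA genes, 3 snoRNA or snRNA genes and others. The tRNA members were nearest to tRNA:Lys-CTT-1-1, tRNA:Cys-GCA-3-1, tRNA:Trp-CCA-2-6 and tRNA:Leu-TAA-4-1, at ranks 17, 240, 318 and 464, 0.8% of members against 1.05% of other peaks. RNaseMRP:RNA, an RNA that processes ribosomal RNA, had 9.103, 8.52 and 8.499 (rank 258), and snRNA:7SKa, of transcription elongation control, 8.25, 6.95 and 8.41 (rank 298). The other 2 of the snoRNA and snRNA list, which had 0.6% of members and 0.594% of other peaks, were scaRNA:PsiU6-40 (rank 268) and snoRNA:Me28S-C2789 (rank 436). For these the peak may also belong to a neighbouring coding gene, which the lists cannot tell.

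Some genes drew several of the strongest peaks. The genes tara and kay were each nearest to 3 members and 20 genes to 2, among them PGRP-LB, key, cact, AGO2, Xrp1, robo1, Eip75B, shn and lola. All 3 summits of tara, a transcriptional coregulator, were in its introns, with 11.6, 19.98 and 12.3 at rank 84, 7.504, 9.01 and 7.57 at rank 292 and 7.004, 9.67 and 7.62 at rank 295. Joining members whose neighbouring summits lay within 15000 bp gave 14 groups of at least 3, with 50 members in all. The largest held 9 members over 53701 bp of chr3L:15500893-15554594, from CG7272 over CG7841, mex1, CG7945, CG43248 and CrebA to AGO2. AGO2 itself had 42.7, 58.8 and 48.8 at rank 2, and the other 8 had means between 5.603 and 12.03. Introns of CrebA, a transcription factor gene of secretory tissues, held 2 of them. The next groups were 4 members over 15290 bp at cni, fzy and cact on 2L, and 4 over 8955 bp at kay on 3R. Members of such a group may share fragments where their summits lie close, yet every share and interval above counts each summit as its own unit, which makes the intervals too narrow.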

How the data were processed

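Peak lists were given for 3 biological replicates of whole larvae of the third instar, at the time of wandering, for their pooled alignments, and as an optimal list of reproducible peaks, on dm6, per the notes deposited with the samples. Peaks were called by the authors against a control alignment. The sources used here do not give the aligner, the peak caller or the reproducibility threshold. The deposited value is a signal per peak, the authors' own, on a scale that is not stated and not comparable between lists, and the depth behind it is unknown. Each replicate list and the pooled list held 30000 peaks.

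From these, the first 500 optimal peaks by signal were taken, with ties by chromosome and summit. Replicate peaks were matched by summits within 100 bp. Motifs were searched 100 bp to each side of the summit, on both strands, in the RefSeq release 6 genome, and each summit was given the gene of the nearest TSS in the Ensembl annotation of that assembly. Nearness does not show that a gene is a target. Shares were compared within each replicate between its strongest 500 peaks and ranks 501 to 9419, by an exact two-sided sign-flip test over the 3 replicates. The p-values, adjusted by the Benjamini-Hochberg method over 15 comparisons, measure only the spread between these samples. Intervals are exact binomial (Clopper-Pearson, 95%) and cover counting error only. Python 3.11.15, NumPy 2.4.6, SciPy 1.17.1 and Matplotlib 3.10.9 were used, and the functions were tested on simulated data.

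The members, gene lists and motifs were chosen with earlier results of these data known. Genes named by rule were those of ranks 21 to 60, up to 4 of the strongest in each gene list, genes nearest to 3 or more members, the 5 members of highest and of lowest CV, the 3 farthest from a TSS and the 2 ranks on each side of the threshold. Other genes named, the groups of transcription factor, kinase, glycosylation and lipid genes, and the genes beside the printed sequences were chosen after their values had been seen. Alternatives varied the size of the strong set, the comparison ranks, the windows, the motif form, the gene assignment and the replicates used. A few results are not reported here.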

Additional observations from a re-analysis of the deposited data

How the results depend on the processing

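Of 63 alternatives, 54 kept the direction or stayed within the spread of the reported value, 5 reversed and 4 moved. The difference in DRE share, -0.294 points in the reported setting, was 0.0566 with the strongest 250 peaks, 0.0129 with 50 bp to each side and 0.303 outside promoters; in the reported direction it was -1.58 at promoter peaks, -0.871 with the strongest 1000, -0.533 against the weakest 500 and -0.126 with 200 bp to each side. The difference in Ohler1 share, 0.495 points, was -0.221 with the strongest 1000 and -0.0604 outside promoters, and ran from 0.179 (50 bp) to 1.067 (weakest 500) otherwise. The cause of these reversals was not tested. The promoter difference, 9.35 points, was 4.198 with the strongest 1000, 13.5 with the strongest 250 and 14.7 against the weakest 500. The GC difference, 0.808 points, was 0.248 at promoter peaks, 0.222 with 200 bp, 1.52 with 50 bp and 1.78 outside promoters. The κB difference was 20.4 points in the relaxed form and 9.85 to 14.1 under the other settings. The immune gene share was 7.10% over the strongest 1000. The share of members found in all replicates rose to 99.4% with the strongest 1000 of each replicate. Leaving out each replicate in turn gave 80.2% to 88.2% for that share (85.8% without replicate 1, where fewer lists have to hold the peak), 11.2 to 12.6 points for κB, 9.03 to 9.61 for promoters, -0.337 to -0.251 for DRE, 0.318 to 0.610 for Ohler1, 0.711 to 0.958 for GC content and 9.40% to 9.60% for the immune share. Ordering by the mean relative signal of all replicates kept 493 of the members. With 3 replicates no setting can pass 0.05, so a kept direction says nothing about significance. No paired analysis was possible because the series has 1 group, so no sample has a partner in another group; the differences above compare sets of peaks within each replicate.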
